A study of Triticum aestivum with 10 samples.

Results

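Em (LOC543480), EM (LOC543497) and the dehydrin Rab15 (LOC543293) are late embryogenesis genes of bread wheat, and they were followed here through 5 stages of grain development. The members are all probe sets that the array annotation pairs with these 3 genes, 3 of the 771 it names, which gave 8 of the 61179 probe sets on the Affymetrix wheat array: 3 for Em, 2 for EM and 3 for Rab15. Grain (endosperm and embryo) of greenhouse-grown hexaploid wheat, cultivar Récital, was hybridised at 5 stages with 2 arrays each. All plants had 8 weeks of vernalization (a cold period) before the greenhouse, and the paper names no other treatment. Stages are named by degree days (DD), the temperature summed over the days since pollination. The paper counts 100, 200 and 250 DD as cell division and 300 and 500 DD as grain filling, and took its biological replicates in harvests of separate years. The labels give 130, 185, 230, 290 and 490 DD for the replicate 1 arrays and 100, 200, 250, 300 and 500 DD for the replicate 2 arrays. Whole grain was sampled, so more embryo in the grain and more transcript per cell cannot be told apart in any value that follows.

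Late embryogenesis abundant proteins accumulate in the embryo while the seed dries, and they are known for protecting cells that lose their water. Em is a small, very hydrophilic protein first described in the wheat embryo, where its transcript is induced by abscisic acid, the hormone of seed maturation. Dehydrins such as Rab15, whose name stands for "responsive to abscisic acid", are another family of these proteins, which also respond to drought and cold. The question addressed here was at which stage each gene came on, whether Rab15 and the Em genes did so together, and whether the probe sets of a gene agreed.

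The probe sets are named here by gene and by the ending of their identifier. Names ending in _at stand for probes designed for 1 transcript, those ending in _s_at for probes shared by several transcripts, and those ending in _x_at for probes that can bind unrelated ones. Hexaploid wheat carries near-identical copies of most genes, so a signal of Em may hold transcripts of EM or of further copies, and the reverse. The 3 probe sets of Em were designed from 1 sequence, as were both of EM and 2 of the 3 of Rab15 (its _at and _x_at probe sets), while the remaining one of Rab15, which also ends in _at and is called TaAffx here after the start of its identifier, came from another. Probe sets of a gene therefore share a target and are not replicates. Levels are log2 values after GCRMA, which corrects each probe for background binding, and 4 was used as the minimum for expression. Levels of different probe sets are not set against each other, because they also depend on the probes.

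The array labelled 100 DD replicate 2 stood apart from its stage and is shown apart throughout. Over the probe sets tested it had a Pearson's r of 0.987 to 500 DD replicate 2, against 0.628 to the other array of its own stage, while r between the arrays of each later stage was 0.934 to 0.960. These are correlations over probe sets, and probe sets are no independent replicates. All tests below use the other 9 arrays, so 100 DD rests on 1 array and division on 5. Markers of the labelled tissue were present. Of 24 probe sets of starchy endosperm genes (gliadins, glutenins, purothionins and starch synthesis) 22 to 23 were at 4 or more on each array from 200 DD on, and 6 on 100 DD replicate 1. Of 3 probe sets of embryo and aleurone genes none was at 4 or more on 100 DD replicate 1, 1 at 200 and 250 DD, and 2 at 300 and 500 DD.

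Em stayed under the minimum through division, reached the minimum with only 1 of its 3 probe sets on 1 of the 300 DD arrays, and was high on both 500 DD arrays. The _at probe set of Em was at 2.16 on 100 DD replicate 1, at 2.16 and 2.17 at 200 DD, at 2.17 and 2.16 at 250 DD, at 4.48 and 3.14 at 300 DD and at 14.22 and 14.14 at 500 DD (replicate 1 first). The spread at 300 DD was the widest of any stage. The _s_at probe set of Em stayed between 1.89 and 1.95 in division, was at 1.98 and 2.02 at 300 DD and reached 13.64 and 13.50 at 500 DD. The _x_at probe set of Em was at 2.49 on all 5 division arrays, at 2.66 and 2.62 at 300 DD and at 14.52 and 14.30 at 500 DD. All 3 probe sets thus placed the rise between 300 and 500 DD.

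EM, a gene annotated apart from Em under nearly the same name, followed Em closely. The _s_at probe set of EM was at 2.97 on 100 DD replicate 1, at 3.17 and 3.10 at 200 DD, at 3.07 on both 250 DD arrays, at 4.003 and 3.23 at 300 DD and at 14.53 and 14.72 at 500 DD. Its _x_at probe set lay between 2.82 and 3.02 in division, at 3.19 and 3.07 at 300 DD and at 13.13 and 13.66 at 500 DD. As for Em, replicate 1 at 300 DD reached the minimum with 1 probe set.

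By the minimum of 4, Rab15 came on at 300 DD, and its rise from there to 500 DD was smaller. Its difference in onset from Em and EM did not pass its own test, given below. The _x_at probe set of Rab15 was at 2.77 on 100 DD replicate 1, at 2.81 on both 200 DD arrays, at 3.26 and 3.02 at 250 DD, at 7.05 and 6.37 at 300 DD and at 11.76 and 11.33 at 500 DD. This probe set was thus under the minimum in division, intermediate at 300 DD and high at 500 DD. The _at probe set of Rab15 lay between 2.31 and 2.81 in division, at 6.10 and 5.40 at 300 DD and at 11.13 and 10.71 at 500 DD. The TaAffx probe set of Rab15 lay between 2.91 and 3.45 in division, at 4.79 and 4.38 at 300 DD and at 9.86 on both 500 DD arrays, so it crossed the minimum at 300 DD by the smallest margin.

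**Figure D1:**
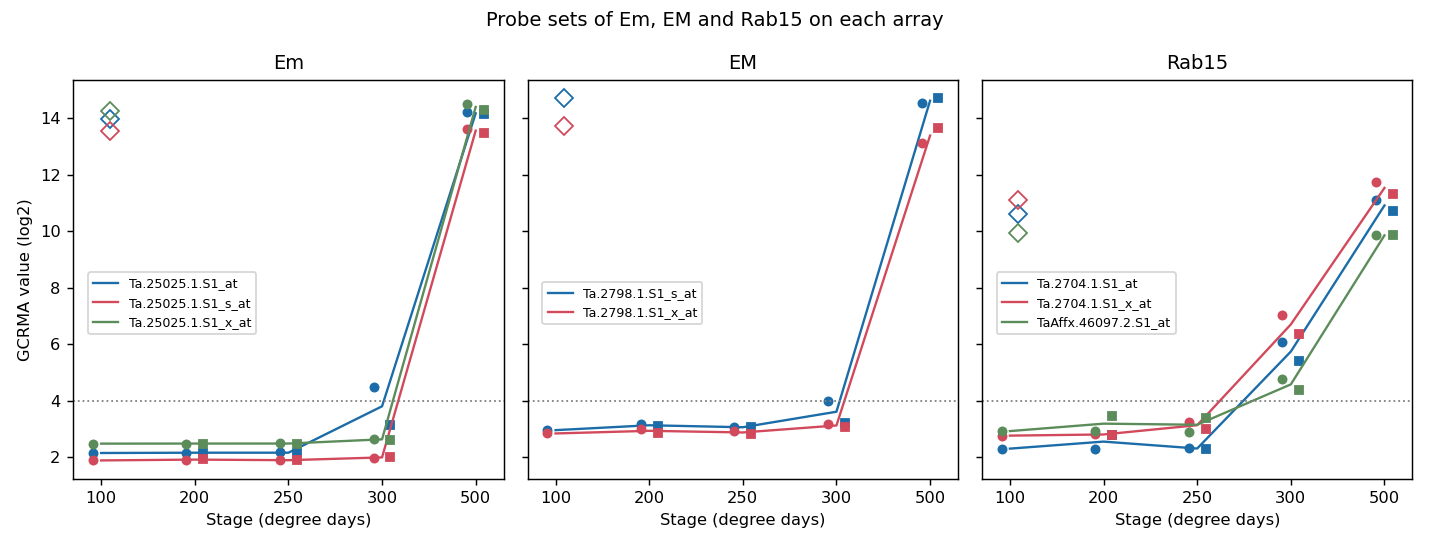
Log2 GCRMA value (y axis) of each probe set of Em, EM and Rab15 against stage in degree days (x axis, stages evenly spaced), with circles for replicate 1, squares for replicate 2, lines through the stage means and open diamonds for the array labelled 100 DD replicate 2, which is in no mean. The dotted line is the minimum of 4: at 300 DD both arrays of all 3 Rab15 probe sets lie above it, while the Em and EM probe sets reach it on replicate 1 only or not at all.

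From 300 to 500 DD every probe set of the 3 genes was higher in the later grain. With limma, a linear model whose spread is shared across all probe sets tested, 8 of 8 were called up at a Benjamini-Hochberg adjusted p under 0.05, against 6.28% of the 24727 probe sets tested, and 0 of 8 were called down, against 6.01%. All 8 passed the filter on low values (4 or more on at least 2 arrays), those of Em and EM only with the help of their 500 DD arrays. Of these, 3 were under 4 on every earlier array, and the _at probe set of Em and the _s_at probe set of EM on all but 1. They were thus kept for being high at 500 DD, so neither this count nor the p-values of Em and EM in this step support the pattern. The _x_at probe set of Em averaged 14.41 ± 0.15 at 500 DD and 2.64 ± 0.03 at 300 DD (SD, n = 2 each), and rose by 11.77 (adjusted p = 3.2e-06 from limma, standard error 0.19). That of the _s_at probe set of EM was 11.01 (standard error 0.29, adjusted p = 1.6e-05 from limma). Rab15 rose by 4.83 with its _x_at probe set (standard error 0.29, adjusted p = 3.3e-04 from limma). Its other probe sets rose by 5.17 and 5.28. The median difference was 10.32 over the 8 probe sets and -0.02 over all probe sets tested. A test of 2 groups with equal variances, run on each probe set alone with 2 arrays against 2 and without the exclusion of extreme variances that the methods add, called 0 of the 8 and 1 of all probe sets after Benjamini-Hochberg adjustment.

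Because Em and EM started under the minimum, their rise has only a lower bound. Taking 4 as the floor, Em was at least 759 to 1359-fold higher at 500 DD than at 300 DD over its probe sets, and EM at least 673 to 1584-fold higher. Put as a share of the 500 DD signal on the linear scale, Em stood at no more than 0.0736% to 0.132% at 300 DD, and EM at no more than 0.0631% to 0.149%. Rab15 was measured at both stages, and its 300 DD signal was 2.77%, 3.51% and 2.58% of that at 500 DD with its _at, _x_at and TaAffx probe sets in this order.

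In the step from 250 to 300 DD calls were made for Rab15 only, although the differences of the genes' probe sets overlapped and the difference between the genes did not pass its own test, given below. Of the Rab15 probe sets, 2 of 3 were called up, with log2 differences of 3.57 (standard error 0.29, adjusted p = 0.0216 from limma) for the _x_at probe set and 3.43 (standard error 0.32, adjusted p = 0.0270 from limma) for the _at probe set. In this step 0.093% of all probe sets tested were called up and 0.0121% down. The Rab15 probe sets passed the filter only through their 300 and 500 DD arrays, so these p-values add no support to the pattern. The TaAffx probe set of Rab15 did not pass (1.43, standard error 0.29, adjusted p = 0.304 from limma). Neither did any probe set of Em (0.10 to 1.64, lowest adjusted p = 0.497 from limma) or EM (0.25 and 0.55, adjusted p = 0.99999 from limma for both). The Rab15 calls ended when any 1 array other than 100 DD replicate 1 was left out (0 of 3 called each time, when 7 of all probe sets tested were called up without either 200 DD array and 0 without any 1 of the 250, 300 or 500 DD arrays), with log2 differences of 3.08 to 3.91 for these 2 probe sets, and also without the filter on low values (adjusted p = 0.114 and 0.154 from limma). With the floor of 4, the _at and _x_at probe sets were at least 3.36 and 6.54-fold higher at 300 DD than at 250 DD.

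Set against all 3 division stages, 300 DD was higher with each Rab15 probe set, by 3.80 (standard error 0.25, adjusted p = 7.4e-04 from limma) for the _x_at probe set, by 3.35 for the _at probe set (adjusted p = 0.00177 from limma) and by 1.49 for the TaAffx probe set (adjusted p = 0.0177 from limma). In this comparison 4.87% of all probe sets tested were called up and 4.13% down. All 3 Rab15 probe sets were under 4 in division and passed the filter only through their 300 and 500 DD arrays. Their p-values therefore add no support to the pattern. The _at probe set of Em was also called (1.65, standard error 0.35, adjusted p = 0.0369 from limma), although its mean of 3.81 at 300 DD lay under the minimum. Without 300 DD replicate 1 the difference was 0.97 (adjusted p = 0.108 from limma), and leaving out any other single array except 300 DD replicate 2 also ended the call (adjusted p = 0.0564 to 0.131 from limma). The other 4 probe sets of Em and EM did not pass (0.09 to 0.56, lowest adjusted p = 0.197 from limma). Without 100 DD replicate 1, or without either 300 DD array, the TaAffx probe set of Rab15 was no longer called (adjusted p = 0.0831, 0.124 and 0.0794 from limma).

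Earlier steps were flat. Between 100 and 200 DD the log2 differences of the 8 probe sets lay between 0.0027 and 0.26, and between 200 and 250 DD between -0.24 and 0.33, with 0 of 8 called in either. At 200 DD against 100 DD 5.03% of all probe sets tested were called up and 4.93% down, and at 250 DD against 200 DD 0% in either direction. Over the 5 stages together 8 of 8 passed the limma F test, with an adjusted p between 1.0e-05 and 1.1e-04, as did 26.7% of all probe sets tested. The probe sets of Em and EM passed the filter only with the help of 500 DD here too, and those of Rab15 only through their 300 and 500 DD arrays. Neither this count nor the p-values of any of the 3 genes therefore support the pattern.

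**Figure D2:**
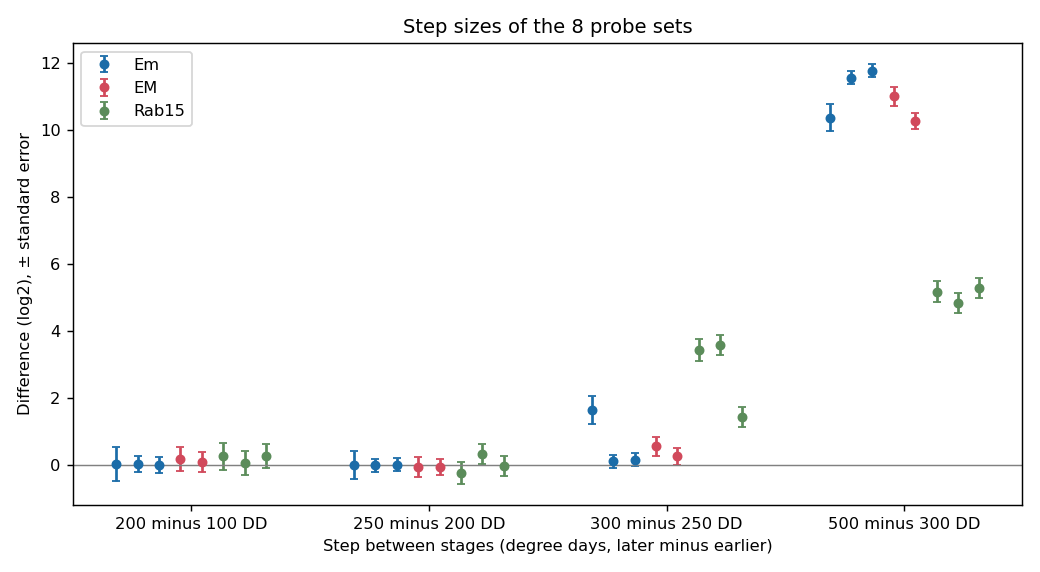
Log2 difference between neighbouring stages (later minus earlier, y axis) with its standard error from limma for each of the 8 probe sets, coloured by gene, for the 4 steps in time order (x axis). The _x_at probe set of Rab15 rose in 2 steps, by 3.57 and 4.83, while the probe sets of Em and EM rose by 10.26 to 11.77 in the last step. The first of these Rab15 steps and those of Em and EM start under the minimum of 4. With 4 as the floor they are at least 2.71 for Rab15 and at least 9.39 to 10.63 for Em and EM.

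The first stage at which every array was at 4 or more was 300 DD for all 3 probe sets of Rab15 and 500 DD for all 5 of Em and EM. With a minimum of 5 it was 500 DD for the TaAffx probe set of Rab15, and with a minimum of 6 also for its _at probe set, whereas the _x_at probe set kept 300 DD and the Em genes 500 DD. For the _at probe set of Em and the _s_at probe set of EM this onset rests on 1 array, since without 300 DD replicate 2 it was 300 DD. Of the 61179 probe sets, 471 (0.77%) were under 4 on all 5 division arrays and at 4 or more on both 500 DD arrays, the 8 members among them. Of these 471, 11.9% were at 4 or more on both 300 DD arrays, as Rab15 was, while 88.1% were under 4 on at least 1 of them. On both they were under 4 in 69.4%, as were the _s_at and _x_at probe sets of Em and the _x_at probe set of EM.

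The difference in onset was tested within arrays, on the _x_at probe set of Rab15 minus the _at probe set of Em. Only the change of this difference along the stages is meaningful, since its size also holds probe effects. It was 2.90 ± 0.47 (SD, n = 2) at 300 DD and 0.77 ± 0.20 (SD, n = 5) in division, a change of 2.13. Rab15 minus the _s_at probe set of EM was 3.09 ± 0.07 (SD, n = 2) at 300 DD and -0.14 ± 0.22 (SD, n = 5) in division, a change of 3.23. Both probe sets were under 4 in division, and with values under 4 set to 4 every division difference was 0 and the change was 2.47 for Em (SD 0.14 at 300 DD, n = 2) and 2.71 for EM (SD 0.48, n = 2), with the same exact permutation p as below. Both 300 DD arrays lay above all 5 division arrays in either difference. The two-sided exact permutation p was 0.0952 for each, the smallest this design allows, and 0.190 after Benjamini-Hochberg adjustment over the 4 tests made, so the design cannot place this difference past the threshold. Against the 250 DD arrays alone the change was 1.92 for Em and 3.02 for EM, with an exact permutation p of 0.333 for each, again the smallest possible.

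The same differences were lower at 500 DD than at 300 DD, and their signs carry no meaning of their own. Rab15 minus Em was -2.47 and -2.82 on the 500 DD arrays, against 2.56 and 3.23 on those of 300 DD. Rab15 minus EM was -2.78 and -3.40 at 500 DD, against 3.04 and 3.14 at 300 DD. On 300 DD replicate 2 the values of Em and EM were under 4, and with the floor both differences were 2.37 there.

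**Figure D3:**
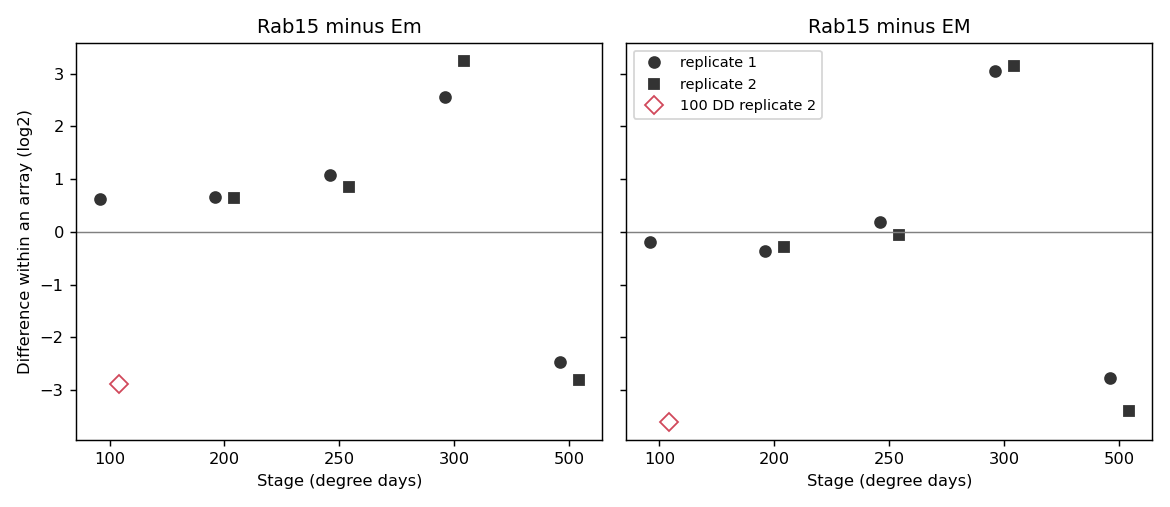
Log2 value of the _x_at probe set of Rab15 minus that of the _at probe set of Em (left) or the _s_at probe set of EM (right) on each array (y axis), by stage in degree days (x axis), with circles for replicate 1, squares for replicate 2 and an open diamond for the array labelled 100 DD replicate 2. The 300 DD arrays lie highest, at 2.56 to 3.23, and the 500 DD arrays lowest among the 9 arrays used, at -3.40 to -2.47.

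Probe sets of a gene agreed on the stage of the largest step and differed in its size. The step from 300 to 500 DD varied by 0.44 over the 3 probe sets of Rab15 (4.83 to 5.28), by 0.75 over those of EM (10.26 and 11.01) and by 1.40 over those of Em (10.37 to 11.77). With values under 4 set to 4 these ranges were 0.84 for Em and 1.23 for EM, so which of them agreed better turned with the floor. The step from 250 to 300 DD lay between 1.43 and 3.57 for Rab15, between 0.25 and 0.55 for EM and between 0.10 and 1.64 for Em. For Em the difference came from the _at probe set, the one designed for 1 transcript, while the other probe sets moved by 0.10 and 0.15. For Rab15 the smallest step to 300 DD was that of the TaAffx probe set, the one from another sequence, which had the largest step to 500 DD.

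Replicate 1 was the higher array at 300 DD for 7 of 8 probe sets, while its label gives 290 DD, against 300 DD for replicate 2. The difference was 0.41 to 0.70 for the probe sets of Rab15, 0.77 and 0.12 for those of EM and 1.35, -0.05 and 0.04 for those of Em. Over all probe sets tested replicate 1 was the higher array in 61.4% (median difference 0.10), and in 55.6% of the 1553 called up from 300 to 500 DD. At 500 DD replicate 1 was higher for 5 of 8, and the differences lay between -0.53 and 0.43. Each of these values compares 1 array with 1 array, so no test was made.

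The rest of the pathway is thinly annotated on the array. The list of late embryogenesis and dehydration genes held 10 probe sets of 5 genes, of which 2 are outside the 3 genes described here, and the list of abscisic acid signalling and seed maturation regulators held 0. LEA1 (LOC543476), a late embryogenesis abundant protein by its name, was already expressed at 4.98 on 100 DD replicate 1 and was at 8.52 and 9.54 at 200 DD, at 9.57 and 10.40 at 250 DD, 11.02 and 11.29 at 300 DD and 12.0005 and 12.36 at 500 DD. LEA1 (LOC543476) passed over the stages and was the 1 probe set of the list called up at 200 DD against 100 DD. Its log2 difference was 3.16 for 300 DD against division (adjusted p = 0.00549 from limma) and 1.03 for 500 DD against 300 DD (adjusted p = 0.180 from limma). COR410, a dehydrin of the cold response, stayed between 2.96 and 3.54 on all arrays, under the minimum, and was not tested. By the minimum of 4 these late embryogenesis genes had different onset stages, although the difference between Rab15 and the Em genes did not pass its test. LEA1 (LOC543476) was at or above the minimum from 100 DD, Rab15 from 300 DD and Em and EM from 500 DD, while COR410 reached it at no stage. LEA1 (LOC543476) has 1 probe set, an _x_at one, and its level at 100 DD rests on 1 array. In the list as a whole 8 of 9 tested probe sets were called up from 300 to 500 DD, against 6.28% of all probe sets tested. All 8 are members, so this count repeats the one above and adds no support.

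Among the 88 other named genes with a tested probe set, the same 5 had the profiles most like those of Em, EM and Rab15, by Pearson's r over the 9 arrays. The arrays share their stages, so r describes the shape and carries no p. The choice depends on the measure, since ranking by Spearman's rho kept 2 of these 5 for Em, 3 for EM and 0 for Rab15. For Rab15 these were WGA2 (LOC543494, r = 0.989), a wheat germ agglutinin and a lectin of the embryo, PIMT (LOC543193, r = 0.965), a methyltransferase that repairs damaged aspartyl residues of proteins, the small heat shock protein hsp16.9A (LOC543277, r = 0.855), the malate transporter TaALMT1 (LOC543388, r = 0.838) and the protease inhibitor Serpin-Z1C (LOC542985, r = 0.819). For Em the order was PIMT (0.922), WGA2 (0.912), TaALMT1 (0.857), Serpin-Z1C (0.777) and hsp16.9A (0.768). For EM it was the same order, with r between 0.737 and 0.894. By comparison, Em and EM correlated at r = 0.995 with each other and EM and Rab15 at r = 0.919.

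WGA2 also had its onset at 300 DD. It lay between 1.91 and 3.30 in division, at 6.79 and 7.40 at 300 DD and at 11.85 and 10.94 at 500 DD. Its log2 difference was 4.29 for 300 DD against 250 DD (adjusted p = 0.0460 from limma) and 4.30 for 500 DD against 300 DD (adjusted p = 0.00259 from limma). The call at 300 DD was lost without any 1 of the 250, 300 or 500 DD arrays, when 0 of all probe sets were called up. At 300 DD its replicate 2 was the higher array, whereas for Rab15 it was replicate 1. PIMT was at 8.04 and 8.16 at 500 DD and at 5.78 and 5.50 at 300 DD, and rose by 2.46 between them (adjusted p = 0.0116 from limma). Serpin-Z1C, at 10.04 and 11.02 at 500 DD and 7.67 and 8.34 at 300 DD, rose by 2.53 (adjusted p = 0.0351 from limma). For hsp16.9A (2.001, adjusted p = 0.292 from limma) and TaALMT1 (1.99, adjusted p = 0.0966 from limma) this step did not pass, and the 500 DD arrays of hsp16.9A were 3.28 apart.

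**Figure D4:**
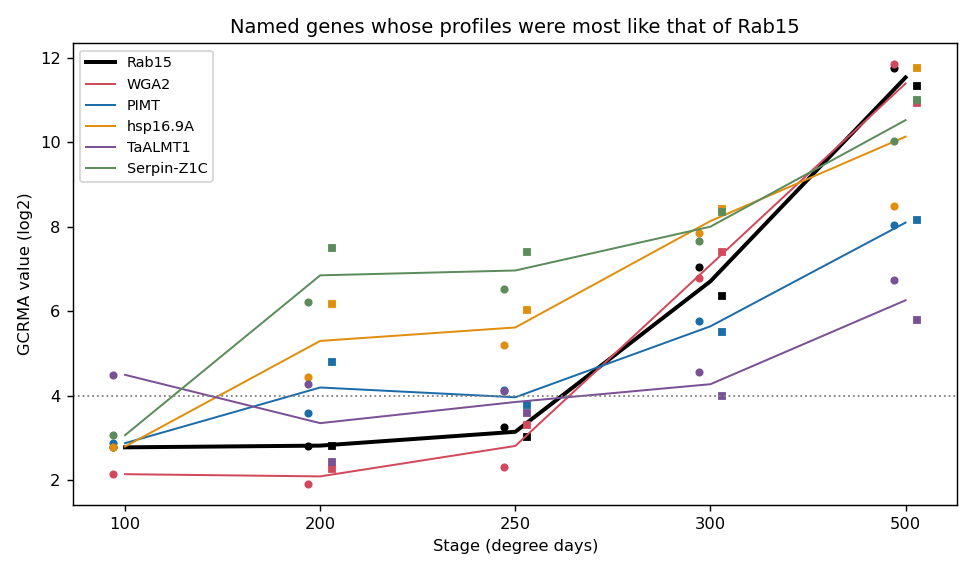
Log2 GCRMA value (y axis) by stage in degree days (x axis) of the _x_at probe set of Rab15 (thick black line) and of the 5 named genes with the highest Pearson's r to it over 9 arrays, with circles for replicate 1, squares for replicate 2 and lines through the stage means. Of the 5, WGA2 alone stays below the minimum of 4 (dotted line) in division, as Rab15 does, while the other 4 genes reach it on at least 1 division array.

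Marker lists of the tissues differed in how far they moved from 300 to 500 DD. The embryo and aleurone list holds WGA2 and PER1, and its summed log2 level over 3 probe sets was 7.91 on 100 DD replicate 1, 14.2 to 19.2 at 200 and 250 DD, 23.4 and 24.0 at 300 DD and 29.7 and 28.1 at 500 DD. Of its 2 tested probe sets 1 was called up from 300 to 500 DD, that of WGA2, against 6.28% of all probe sets tested. The tested probe set of PER1 differed by 0.81 (adjusted p = 0.570 from limma). Among the starchy endosperm markers 0 of 23 were called up and 1 down from 300 to 500 DD, against 6.28% and 6.01% of all probe sets tested (median log2 difference -0.17), and their summed level over 24 probe sets was 304.6 and 308.9 at 500 DD and 313.5 and 310.8 at 300 DD. Of 31 probe sets of 3 green pericarp genes 7 were tested, of which 4 were called down in that step and 0 up, beside the same shares. The median of -1.70 is the value of 1 probe set of the Rubisco gene rbcl, with a standard error of 2.16. That probe set was at 3.76 and 9.26 on the 300 DD arrays. The part of these tissues in the rise of Em, EM and Rab15 was not tested.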

How the data were processed

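The authors normalized the Affymetrix CEL files with GCRMA in Bioconductor and deposited log2 values of 61179 probe sets and 111 controls for 10 arrays. The release of GCRMA was not given in the sources used here. All 10 columns were used and 0 were left out. Probe sets at 4 or more on at least 2 arrays were tested, 24727 with 9 arrays and 24982 with all 10. Stage means were fitted with limma 3.58.1 (statmod 1.5.0, R 4.3.3), with p-values adjusted over all probe sets tested and a threshold of 0.05. Sign and size of every difference are later minus earlier stage, and division is the mean of the stage means of 100, 200 and 250 DD. As an alternative each probe set was tested alone with equal variances, as in the methods but without their exclusion of probe sets of extreme variance, for which no limits were given. The array labelled 100 DD replicate 2 was left out of the tests. Members, lists and tests were chosen with earlier results of these data known. The text names the probe sets of the 3 genes, the listed pathway and marker genes, and the 5 most similar genes for each. Gene names come from the array annotation, in which 1273 probe sets have 1 symbol, 0 have several and the others none, and 1272 matched the RefSeq gene table of the IWGSC CS RefSeq 2.1 assembly. Arrays with the same replicate number were treated as pairs in the block fits, since deviations of replicate 1 from the stage means correlated at 0.249 to 0.718 in 6 of 6 pairs of stages. The labels name no harvest, so where replicates share handling, p-values measure only the spread between these arrays. Each fitting function was first tested on simulated data. Precision is limited by having 2 arrays at a stage.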

Additional observations from a re-analysis of the deposited data

Results flagged for a closer look

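The array labelled 100 DD replicate 2, which no test used, carried a signal of all 3 genes where 100 DD replicate 1 had none above the minimum of 4. On it the probe sets of Em were at 13.99 for the _at probe set, 13.54 for the _s_at probe set and 14.275 for the _x_at probe set, against 1.89 to 2.49 on 100 DD replicate 1. Those of EM were at 14.71 for the _s_at probe set and 13.74 for the _x_at probe set, against 2.97 and 2.85. Those of Rab15 were at 10.60 for the _at probe set, 11.11 for the _x_at probe set and 9.96 for the TaAffx probe set, against 2.31 to 2.93. Set beside the means of the 500 DD arrays, the array labelled 100 DD replicate 2 differed by -0.43 to 0.35 over the 8 probe sets.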

How the results depend on the processing

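With all 10 arrays, 0 of 8 probe sets passed over the stages, 0 from 300 to 500 DD (adjusted p = 0.161 to 0.364 from limma), 0 at 300 DD against 250 DD, 0 at 300 DD against division and 0 of the late embryogenesis list. There the differences of 300 DD against division turned to -0.33, -1.85 and -1.81 for Em and -1.40 and -1.58 for EM, with the array labelled 100 DD replicate 2 among the division arrays. Over all probe sets tested, all 10 arrays gave 107 called over the stages, against 6610 with 9, and 13 called up from 300 to 500 DD, against 1553. The replicate block, fixed or random, changed no call of a member, with 8 of 8 up from 300 to 500 DD, 2 at 300 DD against 250 DD and 4 at 300 DD against division. Over all probe sets tested, the fixed and random block called 2096 and 2051 up from 300 to 500 DD, against 1553 without a block. At 300 DD against 250 DD they called 31 and 26 up, against 23, and at 300 DD against division 1473 and 1499, against 1205. Without a filter, 0 of 8 members were called at 300 DD against 250 DD. Bonferroni adjustment left 0 of 8 at 300 DD against 250 DD and 0 of 8 at 300 DD against division. The equal-variance test was run without the methods' exclusion of extreme variances. With Bonferroni it called 0 of 8 from 300 to 500 DD, from 250 to 300 DD and at 300 DD against division. With Benjamini-Hochberg it called 0 of 8 in the first and second of these. At 300 DD against division it then called 3 of 8, and 31 of all probe sets tested. Without either 500 DD array only 5 members passed the filter, and their log2 differences from 300 to 500 DD were 4.62 to 11.11. The calls at 300 DD that ended when 1 array was left out are given with their comparisons above. Without 300 DD replicate 2 the onset moved to 300 DD for the _at probe set of Em and the _s_at probe set of EM. It otherwise stayed at 500 DD for the probe sets of Em and EM. Ranked by Spearman's rho, 2 of the 5 similar genes were shared for Em, 3 for EM and 0 for Rab15. Without 100 DD replicate 1 the step from 100 to 200 DD could not be fitted. The equal-variance test of 200 DD against 100 DD was not run, with 1 array at 100 DD. Values under 4 have no reliable order, which limits the size of the Em and EM rises.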
